A study of Mus musculus with 8 samples.

Results

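The genes described are 39 lysosome and autophagy genes, picked by symbol from the 22565 rows of a table of protein-coding genes in mouse liver. They are 15 lysosomal hydrolases, 18 genes of the autophagy machinery, 3 genes of the lysosomal membrane, the hydrolase activator Psap, and Tfeb and Tfe3, which encode transcription factors of the MiT/TFE family. All 39 were found in the table, and all 39 reached the level needed for a test.

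Livers came from male C57BL/6J mice, 10 weeks old when obtained. One group received dexamethasone, a synthetic glucocorticoid, 1.0 mg/kg, injected into the peritoneum every day for 14 days, and the vehicle group received saline on the same schedule. No transgene or other allele is named for either group. RNA depleted of ribosomal RNA was sequenced in 4 libraries per group, called here vehicle 1 to 4 and dexamethasone 1 to 4, and the question is which of these genes differed in level between the treatments.

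Lysosomes are acidic organelles in which hydrolases break down proteins, glycans, lipids and glycogen. In autophagy, a double membrane closes around cytoplasm or organelles and delivers them to the lysosome: ULK kinases start the process, a lipid kinase complex and WIPI proteins mark the forming membrane, a conjugation system attaches ATG8 proteins to it, and receptors tie the cargo to ATG8. TFEB and TFE3 raise the transcription of many of these genes in fasting, and in liver autophagy supplies amino acids and fatty acids between meals.

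TFEB and TFE3 bind a short element of promoters, the CLEAR element, whose core is read here as TCACGTGA. Promoter windows of 250 bases before to 50 bases after the gene start (RefSeq, build GRCm38.p6) were given for 33 of the 39 genes, as 38 windows, and the core was sought on both strands, where it reads alike. It was present in 5 of the 38 windows (13.2%) and in 320 of 32851 windows of the same length over all genes (0.974%). The windows that held it were those of Mcoln1, Ctsa, Ctsd, Gla and Atg3, and they are shown with 11 bases on each side because they are the members that carry the letters these factors read. Capitals mark the core, and each sequence is written 5′ to 3′ on the strand of its gene.
Mcoln1 at chr8:3500462-3500491, plus strand: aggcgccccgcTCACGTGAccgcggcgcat
Ctsa, upstream copy, at chr2:164833749-164833778, plus strand: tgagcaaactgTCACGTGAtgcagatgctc
Ctsa, downstream copy, at chr2:164833766-164833795, plus strand: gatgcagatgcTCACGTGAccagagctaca
Ctsd at chr7:142387908-142387937, minus strand: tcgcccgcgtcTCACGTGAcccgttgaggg
Gla, distal copy, at chrX:134601215-134601244, minus strand: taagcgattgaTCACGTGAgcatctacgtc
Gla, proximal copy, at chrX:134601182-134601211, minus strand: tgagatctcggTCACGTGAgcaactctcgg
Atg3 at chr16:45158746-45158775, plus strand: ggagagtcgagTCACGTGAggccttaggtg

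Distances are from the RefSeq start used for each window. By the gene bounds of GENCODE M21, which differ, the cores of Mcoln1, Ctsa and Ctsd lie inside the gene. The core began 46 bases before the start in Mcoln1, 72 before it in Atg3 and 99 before it in Ctsd. In Gla the copies began 228 and 195 bases before the start, and in Ctsa 1 copy began 13 bases before the start and the other at base 5 after it. The shorter E-box CACGTG, which is contained in the core, was present in 12 member windows (31.6%), those 5 and the windows of Lamp1, Ctsl, Gaa, Glb1, Atg5, Atg7 and Bnip3, against 7.15% of all windows. The letters GTAAACA, read by FOXO factors, were in 0 member windows and in 3.65% of all windows. A match is a description of letters, and whether any factor was bound there was not measured.

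Between libraries the levels shifted as a whole, and this bears on every gene below. The table gives FPKM, a level per transcript length that is scaled to library size, and a second set of columns that behave as fragment counts multiplied by a factor for each library; dividing by that factor gave 1361293 (dexamethasone 4) to 3360083 (vehicle 3) inferred fragments on protein-coding genes. In the deposited FPKM the median log2 fold change (dexamethasone minus vehicle) of the 10221 tested genes was -0.28, and it was -0.00 after median-ratio scaling, in which a library is divided by the median over genes of its ratio to their geometric means. Fragments on the single gene Lars2 made up 14.5% to 25.3% of the vehicle libraries and 28.4% to 51.1% of the dexamethasone libraries. Outside Lars2 the dexamethasone libraries held 665936 to 1581776 fragments and the vehicle libraries 1636130 to 2571861, so precision was lower with dexamethasone and lowest in dexamethasone 4. Hepatocyte markers marked the tissue as labelled (Alb 13037 ± 2370 FPKM with vehicle, SD, n = 4), and the glucocorticoid targets Fkbp5, Tat and Mt2 rose. Tsc22d3 rose on the scaled fragment counts (adjusted p = 0.012) but did not pass as deposited or after median-ratio scaling, and Per1 did not pass on any of the 3 scales. In liver as a whole, fewer cells of a type and less RNA per cell cannot be told apart.

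In vehicle liver the members spanned from Lamp2 at 116 ± 15.5 FPKM down to Gla at 1.34 ± 0.45 FPKM (SD, n = 4). The highest 6 were Lamp2, Ctsl, Psap, Ctsh, Ctsd and Lamp1, all lysosomal, and each overlapped the next in that order over the 4 libraries. Below Lamp1 (60.5 to 77.6 FPKM) came a gap to Ctsz (35.8 to 45.2 FPKM), followed by Ctsa, Ctsb, Sqstm1 and Lipa. The only other places where neighbours in the order did not overlap were between Lipa and Gabarapl1, Bnip3 and Gabarap, and Wipi1 and Glb1. Most autophagy genes lay in the lower part of the order, from Gabarapl1 at 19.5 ± 3.4 FPKM to Wipi1 at 2.76 ± 0.764 FPKM, and the cargo receptor Sqstm1 at 36.6 ± 7.2 FPKM was the highest of them.

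**Figure D1:**
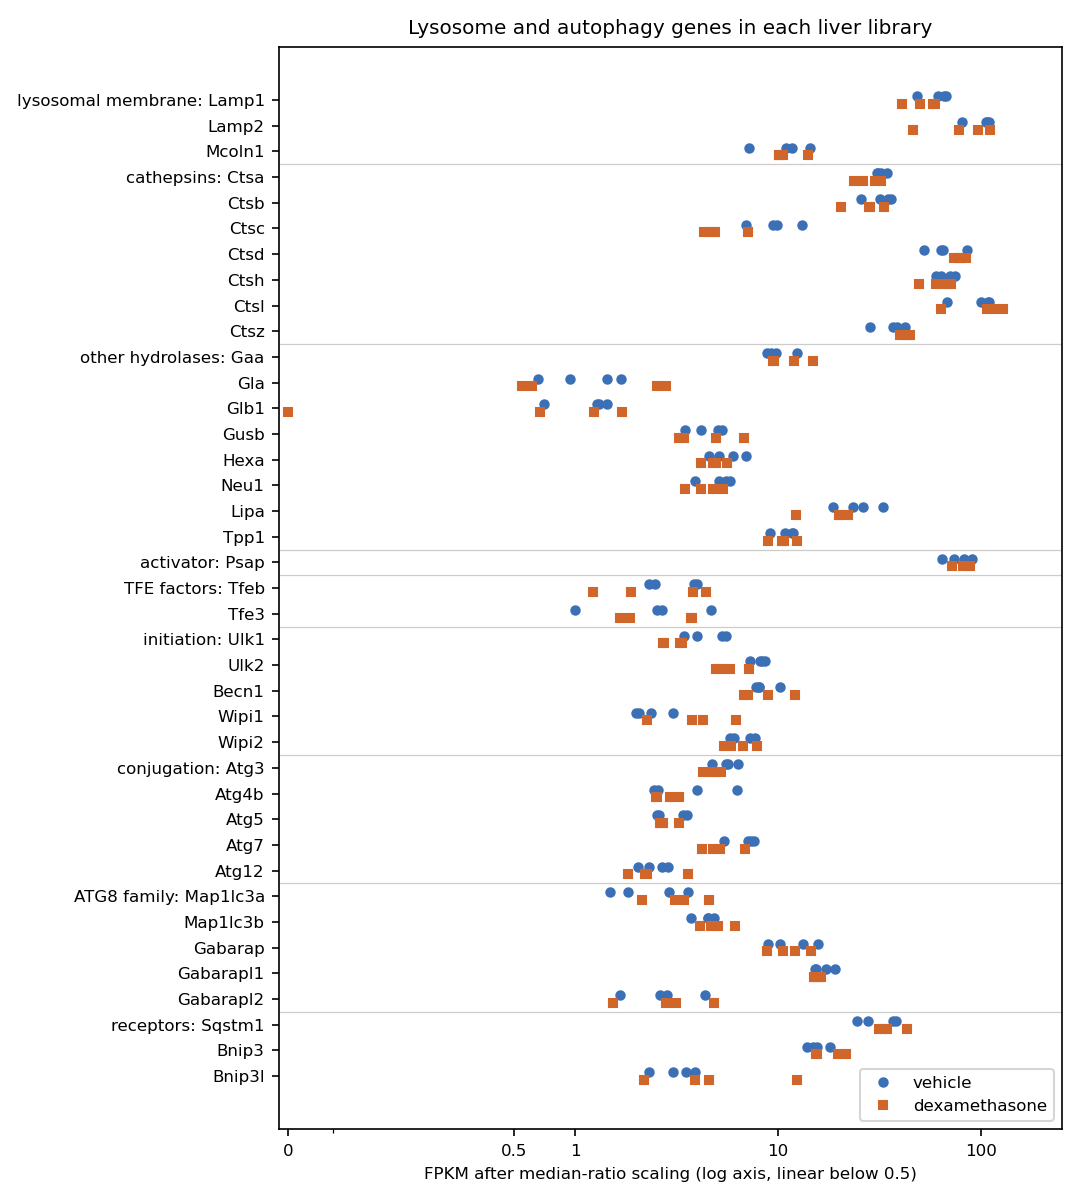
Level of each of the 39 genes in each library, as FPKM after median-ratio scaling on a log axis (linear below 0.5), grouped by role. Circles are vehicle and squares are dexamethasone libraries; most genes overlap between groups, and Ulk1 and Ulk2 are the 2 in which each dexamethasone library lies below each vehicle library.

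Of the 39 members, 2 fell with dexamethasone in the deposited FPKM, Ctsc and Ulk2, and 0 rose (limma, adjusted p under 0.05). That is 5.13% of the members, where 7.85% of all tested genes fell and 1.37% rose. At an unadjusted p under 0.05, 13 of the 39 members were lower and 0 higher, where 24.2% of all tested genes were lower and 3.18% higher. After median-ratio scaling only Ctsc passed, 2.56% of the members against 3.03% of all genes that fell and 3.3% that rose, and 1 member was higher and 3 were lower at an unadjusted p under 0.05, where 9.92% of all genes were higher and 10.3% lower. With the scaled fragment counts after median-ratio scaling, Ctsc and Ulk1 fell, where 5.26% of all genes fell and 5.26% rose. The share of members called at an adjusted p under 0.05 was thus near or below that of all genes on each scale. At an unadjusted p under 0.05 as deposited, the share of members that were lower was above the 24.2% of all genes. The labels do not say that each library came from a separate mouse, so p-values measure the spread between these libraries.

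**Figure D2:**
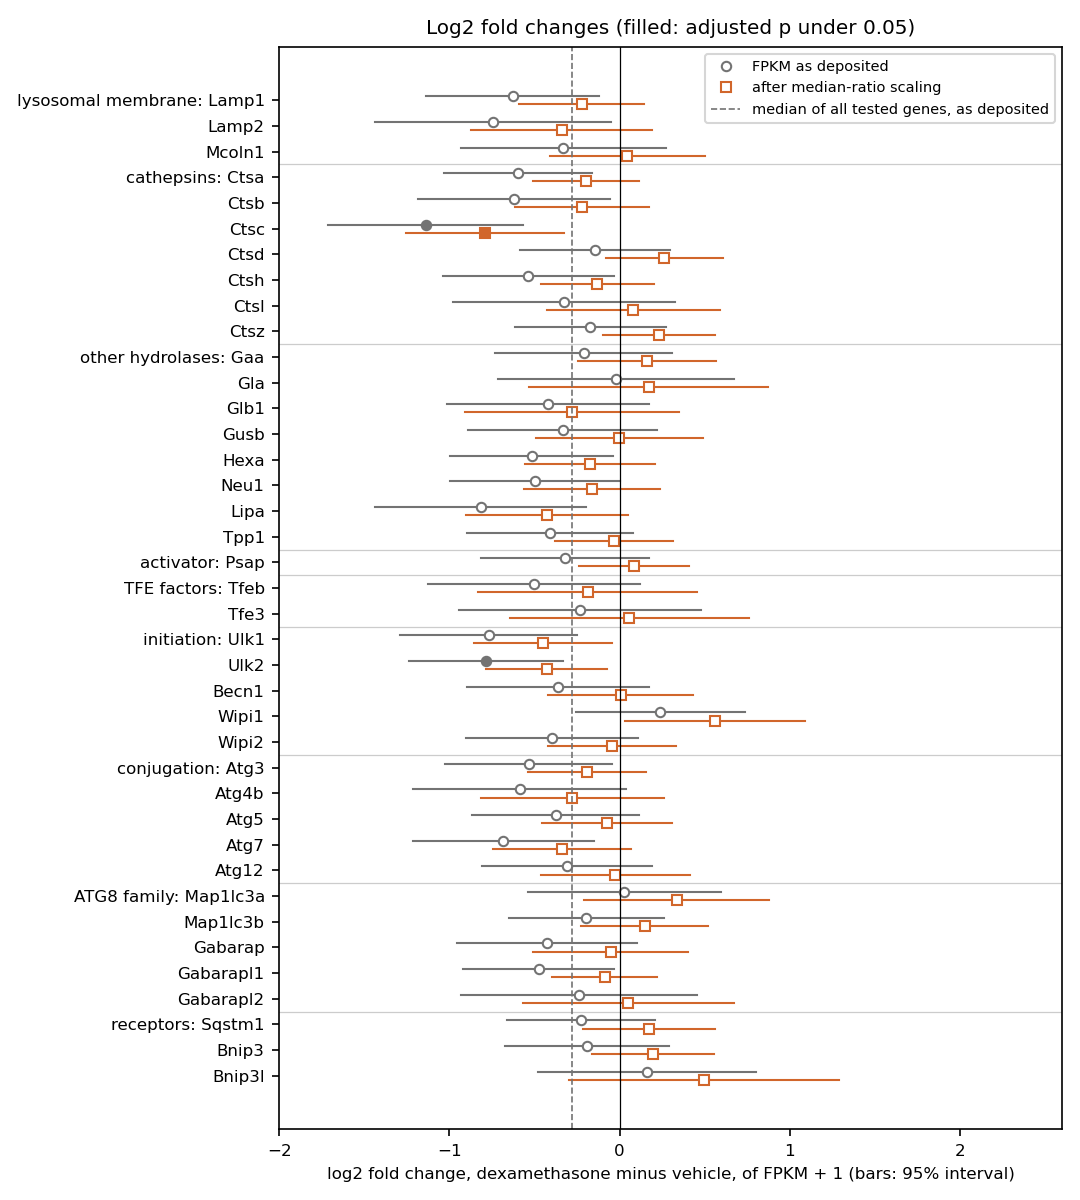
Log2 fold change (dexamethasone minus vehicle) of FPKM + 1 for each of the 39 genes with its 95% interval, as deposited (circles) and after median-ratio scaling (squares). Filled symbols passed at an adjusted p under 0.05: Ctsc on both scales and Ulk2 as deposited; the dashed line is the median of all tested genes as deposited, -0.28.

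The hydrolases and the autophagy machinery differed little in their median fold change. The median log2 fold change was -0.42 for the 15 hydrolases and -0.37 for the 18 autophagy genes in the deposited FPKM, beside -0.28 for all genes. After median-ratio scaling the medians were -0.13 and -0.04, and with the scaled fragment counts 0.01 and 0.04, beside -0.00 and -0.01 for all genes. The difference between the group medians, hydrolases minus autophagy, was -0.05 as deposited. Within a library, the median log2(FPKM + 1) of the hydrolases exceeded that of the autophagy genes by 1.20, 0.65, 0.99 and 1.32 in vehicle 1 to 4 and by 1.11, 1.43, 1.19 and 0.59 in dexamethasone 1 to 4, so the groups overlapped. Of hydrolases 1 fell and 0 rose, and of autophagy genes 1 fell and 0 rose, where 7.85% of all genes fell and 1.37% rose. At an unadjusted p under 0.05 as deposited stood 6 of the 15 hydrolases and 5 of the 18 autophagy genes. All of these were lower, where 24.2% of all genes were lower. After scaling the adjusted calls were 1 lower and 0 higher for hydrolases, and 0 and 0 for autophagy genes, where 3.03% of all genes fell and 3.3% rose. At an unadjusted p under 0.05 after scaling stood 1 of the 15 hydrolases, which was lower, and 3 of the 18 autophagy genes, 1 higher and 2 lower, where 9.92% of all genes were higher and 10.3% lower.

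The summed level of each class was also compared. The 15 hydrolases together reached 530, 410, 486 and 435 FPKM in vehicle 1 to 4 and 405, 442, 375 and 219 FPKM in dexamethasone 1 to 4. After median-ratio scaling these sums were 436, 326, 413 and 442 FPKM with vehicle and 433, 430, 428 and 326 FPKM with dexamethasone. The deposited sums of dexamethasone 1 and 2 lay at or near the vehicle range, dexamethasone 4 lay far below it, and the scaled sums of the groups covered the same range. The 18 autophagy genes summed to 182, 165, 161 and 144 FPKM with vehicle and 129, 144, 129 and 101.3 FPKM with dexamethasone, and after scaling to 150, 131, 137 and 147 FPKM against 138, 141, 147 and 151 FPKM. The autophagy sums of the groups overlapped on both scales, as deposited only through dexamethasone 2 and vehicle 4.

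**Figure D3:**
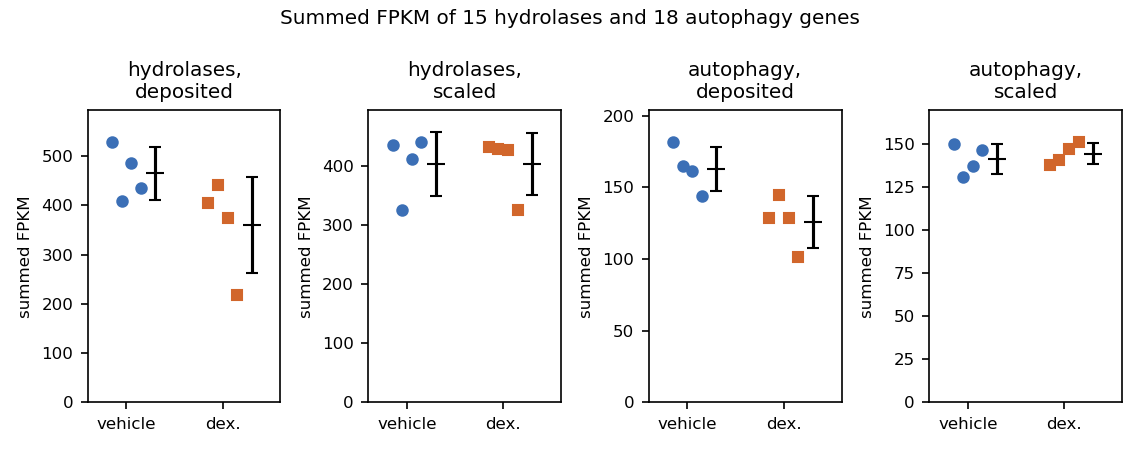
Summed FPKM of the 15 hydrolases and of the 18 autophagy genes in each library, as deposited and after median-ratio scaling; bars beside the points are the mean and SD of 4 libraries. The hydrolase sum as deposited is lowest in dexamethasone 4 at 219, and after scaling the groups overlap in both lists.

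In FPKM, as deposited and after median-ratio scaling, groups that did not overlap were also no more frequent than among all genes. On the scaled fragment counts as deposited, members lower without overlap were slightly more frequent than the 20.2% of all tested genes. In the deposited FPKM each dexamethasone library lay below each vehicle library for 6 of the 39 members (15.4%), namely Lamp1, Ctsc, Ctsh, Lipa, Ulk1 and Ulk2, against 16.2% of all tested genes. No member was higher without overlap, against 2.18% of all genes. After median-ratio scaling Ulk1 and Ulk2 were lower without overlap (5.13% of the members), against 7.11% of all genes lower and 7.31% higher. The scaled 95% intervals of 36 of the 39 members lay within a log2 fold change of FPKM + 1 of 1 in either direction. The exceptions were Ctsc, Wipi1 and Bnip3l. With the scaled fragment counts after median-ratio scaling 34 members did. The exceptions there were Ctsc, Wipi1, Glb1 (-2.45 to 0.44), Ulk1 (-1.02 to -0.23) and Map1lc3a (-0.54 to 1.10). The added 1 understates changes of low members, so larger changes in their levels are not excluded by these FPKM intervals.

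Among the proteases, Ctsc gave the clearest difference. Ctsc encodes cathepsin C, a dipeptidyl peptidase that activates the granule serine proteases of neutrophils, mast cells and cytotoxic lymphocytes. Its FPKM was 15.9, 8.75, 11.1 and 9.72 in vehicle 1 to 4, and 4.59, 7.29, 4.02 and 2.9 in dexamethasone 1 to 4. Each dexamethasone library was below each vehicle library, and vehicle 1 was the highest. The mean fell from 11.4 ± 3.18 to 4.7 ± 1.86 FPKM (SD, n = 4), to 41.3% of the vehicle mean, with a log2 fold change of FPKM + 1 of -1.14 ± 0.26 (SE, limma, adjusted p = 0.018).

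The call for Ctsc held on each of the 3 scales, with a size that depended on the scale. After median-ratio scaling its FPKM was 13.1, 6.95, 9.46 and 9.88 against 4.91, 7.10, 4.59 and 4.34, so dexamethasone 2 overlapped vehicle 2, and the log2 fold change was -0.79 ± 0.21 (limma, adjusted p = 0.049). The scaled fragment counts were 168, 106, 134 and 115 with vehicle and 39.2, 74.7, 53.1 and 16.5 with dexamethasone, from 110 to 187 inferred fragments per vehicle library and 12 to 70 per dexamethasone library. On these counts after median-ratio scaling the log2 fold change was -1.19 ± 0.25 (limma, adjusted p = 0.0029), and it passed with each library left out in turn (adjusted p 0.00089 to 0.012). With the deposited FPKM the call was lost without vehicle 1 (adjusted p = 0.061) and without dexamethasone 3 (adjusted p = 0.053). With the scaled FPKM it passed only without vehicle 2 and without dexamethasone 2, and the adjusted p over the 8 omissions was 0.034 to 0.14.

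A comparison inside each library avoids the scaling between libraries. Ctsc made up 3.61%, 2.55%, 2.69% and 2.64% of the summed FPKM of the 7 cathepsins in vehicle 1 to 4, and 1.30%, 1.95%, 1.25% and 1.54% in dexamethasone 1 to 4. The shares did not overlap, and the mean was 2.87 ± 0.497% against 1.51 ± 0.32% (SD, n = 4). The ratio of Ctsc to Ctsd FPKM was 0.15 ± 0.039 with vehicle and 0.0665 ± 0.0159 with dexamethasone, and that of Ctsc to Ctsh 0.146 ± 0.03 against 0.0849 ± 0.0123, both without overlap and both also without overlap in the scaled fragment counts. Ctsz, a carboxypeptidase, made up 10.7 ± 0.485% of cathepsin FPKM with vehicle and 12.4 ± 1.19% with dexamethasone without overlap, and the shares of Ctsa, Ctsb, Ctsd, Ctsh and Ctsl overlapped. These shares and ratios were not tested, since they rest on members chosen with results known, and Ctsc was called on the same FPKM. Ratios of Ctsc to the other cathepsins were not computed. How often shares or ratios of other genes do not overlap was not computed either.

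**Figure D4:**
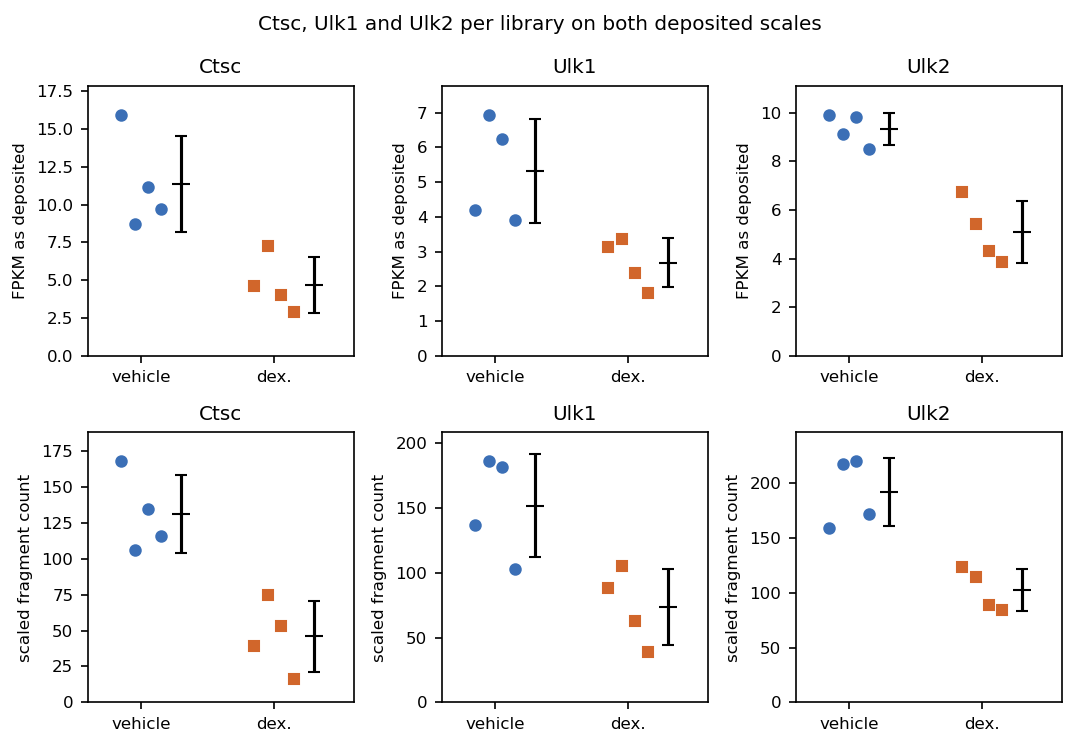
Ctsc, Ulk1 and Ulk2 in each library, as deposited FPKM (top) and as scaled fragment counts (bottom), with the mean and SD of 4 libraries beside the points. The dexamethasone libraries lie below the vehicle libraries for Ctsc and Ulk2 on both scales, and for Ulk1 in FPKM, while 1 dexamethasone library (105) lies above vehicle 4 (103) in its scaled fragment counts.

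The promoter window of Ctsc is shown whole because Ctsc was the member called on every scale. It lies on the plus strand at chr7:88277835-88278134 (RefSeq, GRCm38.p6), and the last 50 bases, from the gene start on, are in capitals.
Ctsc: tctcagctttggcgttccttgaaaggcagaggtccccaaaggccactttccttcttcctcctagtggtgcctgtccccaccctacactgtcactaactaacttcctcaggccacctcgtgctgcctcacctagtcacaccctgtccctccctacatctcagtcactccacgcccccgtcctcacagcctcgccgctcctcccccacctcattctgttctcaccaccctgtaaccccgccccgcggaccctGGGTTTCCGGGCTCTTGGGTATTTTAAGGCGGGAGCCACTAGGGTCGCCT
None of the letters TCACGTGA, CACGTG or GTAAACA was in this window, nor in those of Ulk1 and Ulk2. Of the 5 members whose windows held TCACGTGA, shown above, 0 passed the test on any of the 3 scales (limma). Of all tested genes 7.85% fell and 1.37% rose as deposited, and 3.03% and 3.3% after median-ratio scaling. On the scaled fragment counts 5.26% fell and 5.26% rose. At an unadjusted p under 0.05 as deposited, Ctsa and Atg3 were lower, where 24.2% of all genes were lower. Scaled log2 fold changes were 0.05 for Mcoln1, -0.20 for Ctsa, 0.26 for Ctsd, 0.17 for Gla and -0.19 for Atg3. Whether members with the core differed from other genes was not tested.

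Since Ctsc is also a gene of immune cells, markers of these cells are given beside it. Of 16 markers of Kupffer cells, the macrophages of the liver, 15 were tested, and Lyz2, a lysozyme, and Mpeg1, a pore-forming protein of macrophages, fell. Of all tested genes 7.85% fell as deposited and 3.03% after scaling. Lyz2 went from 12.5 ± 3.58 to 3.98 ± 1.29 FPKM (log2 fold change -1.44 ± 0.28, adjusted p = 0.0075, and -1.09 after scaling, adjusted p = 0.0097). Mpeg1 went from 3.67 ± 0.636 to 1.1 ± 0.28 FPKM (log2 fold change -1.15 ± 0.21, adjusted p = 0.0054, and -0.89 after scaling, adjusted p = 0.0091). Cd163, a scavenger receptor, rose after median-ratio scaling (0.73, adjusted p = 0.049) and on the scaled fragment counts (adjusted p = 0.0026) but not as deposited, and the other 12 tested markers did not pass on any of the 3 scales. Among these, Cd5l, a secreted protein of macrophages, was at 10.9 ± 3.71 FPKM with vehicle and 5.54 ± 0.921 FPKM with dexamethasone (-0.82, adjusted p = 0.054, and -0.46 after scaling, adjusted p = 0.25). Laptm5 was at 2.15 ± 1.9 and 0.318 ± 0.231 FPKM (-1.05, adjusted p = 0.095) and Adgre1 at 1.62 ± 0.426 and 0.919 ± 0.415 FPKM (-0.46, adjusted p = 0.21), and the log2 fold changes of Clec4f, Vsig4, C1qa, C1qb and C1qc as deposited lay between -0.23 and 0.31. Timd4, which was not tested, was at 0.444 to 0.770 FPKM with vehicle and 0 to 0.328 FPKM with dexamethasone. The summed FPKM of the list was 41.0 to 83.0 with vehicle and 36.3 to 49.1 with dexamethasone, and after scaling 41.7 to 68.2 and 46.6 to 56.0.

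Markers of other leukocytes were near the limit of detection. The 10 markers of T and B cells summed to 0.80 to 2.16 FPKM with vehicle and 0 to 0.467 FPKM with dexamethasone, where 3 of 4 libraries were listed at 0 for all 10, and Cd3d was listed at 0 in every library. The 8 neutrophil markers summed to 0.413 to 1.41 FPKM with vehicle and 0 to 0.394 FPKM with dexamethasone, and Ly6g, Mpo, Camp and Ngp were listed at 0 in every library. None of these 18 genes reached the level needed for a test. The part of these cells in the Ctsc difference was not tested.

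The other cathepsins did not pass. Of the 7 cathepsins, Ctsc included, 4 were lower at an unadjusted p under 0.05 as deposited, where 24.2% of all tested genes were lower. After median-ratio scaling 1 was lower at that threshold, where 10.3% of all genes were. Ctsl, a cysteine protease and the most abundant cathepsin, was at 132, 85.3, 129 and 98.5 FPKM in vehicle 1 to 4 and at 120, 110, 100.9 and 42.6 FPKM in dexamethasone 1 to 4. The groups overlapped, with dexamethasone 4 lowest, and the log2 fold change was -0.33 ± 0.30 as deposited (adjusted p = 0.51) and 0.08 after scaling (95% interval -0.43 to 0.59). For the aspartic protease Ctsd the scaled log2 fold change was 0.26 (interval -0.08 to 0.61), for the cysteine protease Ctsb -0.22 (-0.62 to 0.17), and for the aminopeptidase Ctsh -0.13 (-0.46 to 0.20). Ctsa, a carboxypeptidase that also protects beta-galactosidase and sialidase, came closest as deposited (-0.60 ± 0.20, adjusted p = 0.080), and it was -0.20 after scaling (-0.51 to 0.12). The Ctsd gene overlaps the predicted gene Gm49369 on the same strand, and how shared reads were counted is not given in the sources used here.

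Of the 8 hydrolases other than cathepsins, 0 passed on any of the 3 scales (limma), and 2 had an unadjusted p under 0.05 as deposited. These 2 were lower, where 24.2% of all tested genes were lower at that threshold. Lipa, the acid lipase that frees cholesterol and fatty acids, was the lowest of the 8 at a log2 fold change of -0.82 ± 0.29 (adjusted p = 0.091), from 29.2 ± 7.38 to 16.8 ± 6.1 FPKM. Its deposited libraries did not overlap, and after scaling the fold change was -0.43 (interval -0.90 to 0.05). Gaa, which degrades glycogen, went from 11.5 ± 0.458 to 10.3 ± 3.77 FPKM, at 0.16 after scaling (-0.24 to 0.56). Scaled values were -0.17 for Hexa, a subunit of beta-hexosaminidase, -0.16 for the sialidase Neu1, -0.00 for the beta-glucuronidase Gusb and -0.04 for Tpp1, an aminopeptidase.

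Glb1 and Gla were the lowest members and rested on few fragments. Glb1, which encodes beta-galactosidase, was at 1.56, 0.887, 1.55 and 1.42 FPKM with vehicle and at 0.631, 1.27, 1.5 and 0.000112 FPKM with dexamethasone. The last value, in dexamethasone 4, stood on 0 inferred fragments, and the other libraries held 9 to 30. Glb1 also overlaps Tmppe on the same strand. Gla, alpha-galactosidase A, was at 1.74, 1.19, 0.771 and 1.65 FPKM with vehicle and at 0.51, 2.61, 2.46 and 0.412 FPKM with dexamethasone, on 5 to 18 fragments. Neither difference was detectable at this depth.

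The membrane genes and the activator did not pass the test either. Lamp1, an abundant glycoprotein of the lysosomal membrane, was at 74.4, 60.5, 77.6 and 65.7 FPKM with vehicle and at 55.1, 51.3, 50.5 and 27.2 FPKM with dexamethasone. The deposited groups did not overlap, but the log2 fold change of -0.63 ± 0.24 had an adjusted p of 0.11, and it was -0.22 after scaling (interval -0.59 to 0.14). Lamp2, another membrane glycoprotein, of which an isoform serves chaperone-mediated autophagy, went from 116 ± 15.5 to 75.4 ± 33.4 FPKM (-0.75 ± 0.32, adjusted p = 0.15), with dexamethasone 4 at 31.0 FPKM. It was -0.34 after scaling (interval -0.87 to 0.19) and -0.23 with the scaled fragment counts (-0.59 to 0.12). Mcoln1, a cation channel that releases lysosomal calcium, went from 13 ± 4.18 to 9.96 ± 3.17 FPKM, and Psap, the precursor of the saposins that help hydrolases act on sphingolipids, from 89.8 ± 16.6 to 72.6 ± 17.4 FPKM. Their scaled log2 fold changes were 0.05 and 0.09.

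The transcription factors of the set did not pass the test on any of the 3 scales. Tfeb was at 4.85, 4.85, 2.73 and 2.43 FPKM in vehicle 1 to 4 and at 1.14, 1.94, 3.85 and 2.54 FPKM in dexamethasone 1 to 4, with overlap. Its log2 fold change was -0.50 ± 0.29 as deposited (adjusted p = 0.28) and -0.19 after scaling (interval -0.83 to 0.46). Tfe3 was at 1.22, 5.85, 2.97 and 2.63 FPKM with vehicle and at 1.75, 3.89, 1.45 and 2.48 FPKM with dexamethasone, again with overlap. Its log2 fold change was -0.23 ± 0.33 (adjusted p = 0.68) and 0.06 after scaling (-0.64 to 0.76). Its scaled fragment counts were 39.2, 47.2, 45.3 and 31.7 with vehicle and 27.7, 31.0, 24.3 and 22.0 with dexamethasone. These did not overlap, as in 9 of the 39 members, all lower, and in 20.2% of all tested genes, and after median-ratio scaling of these counts the log2 fold change was -0.15 ± 0.23 (adjusted p = 0.76). Tfeb stood on 10 to 36 inferred fragments and Tfe3 on 16 to 63. The quotient of FPKM and scaled fragment count also varied between libraries, by 4.04 times for Tfe3 and 3.24 times for Tfeb (highest over lowest). With it first divided by its median over genes in each library, the median was 1.44 times over the members and 1.6 over 9680 genes. The values for Tfe3 and Tfeb are thus not on the same measure as these medians.

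In the initiation step, both ULK kinases were lower, and which of them passed depended on the scale. Ulk1 and Ulk2 encode related kinases that start autophagosome formation. Ulk2 was at 9.91, 9.13, 9.83 and 8.49 FPKM in vehicle 1 to 4 and at 6.73, 5.43, 4.33 and 3.86 FPKM in dexamethasone 1 to 4. The groups did not overlap, and the vehicle libraries lay close together. The mean fell from 9.34 ± 0.665 to 5.09 ± 1.28 FPKM, to 54.5% of the vehicle mean (log2 fold change -0.79 ± 0.21, limma, adjusted p = 0.035). After scaling, Ulk2 was at 8.15, 7.25, 8.35 and 8.63 FPKM against 7.19, 5.29, 4.94 and 5.76 FPKM, still without overlap, but the log2 fold change of -0.43 ± 0.16 had an adjusted p of 0.16. The deposited call was lost without vehicle 1, 2 or 3 and without dexamethasone 3 or 4 (adjusted p 0.055 to 0.095).

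Ulk1 was at 4.18, 6.93, 6.24 and 3.91 FPKM with vehicle and at 3.13, 3.37, 2.40 and 1.82 FPKM with dexamethasone. The groups did not overlap, and they did not overlap after scaling (3.44 to 5.51 against 2.72 to 3.35 FPKM). The log2 fold change was -0.77 ± 0.24 as deposited (adjusted p = 0.063), -0.45 ± 0.18 after scaling (adjusted p = 0.20) and -0.62 ± 0.19 on the scaled fragment counts after median-ratio scaling (adjusted p = 0.040). The call on fragments was lost without vehicle 2 or 3 and without dexamethasone 3 or 4, and the adjusted p over the 8 omissions was 0.025 to 0.14. The ratio of Ulk2 to Ulk1 FPKM was 1.86 ± 0.494 with vehicle and 1.92 ± 0.257 with dexamethasone, with overlap.

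Wipi1 was the member furthest in the other direction. It encodes a protein that binds the phosphoinositide mark of the forming autophagosome, and it was at 2.42, 3.80, 2.80 and 2.02 FPKM with vehicle and at 3.51, 2.33, 3.73 and 4.13 FPKM with dexamethasone. The groups overlapped, and the log2 fold change was 0.24 ± 0.23 as deposited (adjusted p = 0.52) and 0.56 ± 0.24 after scaling (interval 0.03 to 1.09, unadjusted p = 0.039, adjusted p = 0.22). Its relative Wipi2, at -0.05 after scaling (-0.42 to 0.33), and Becn1, a subunit of the lipid kinase complex, at 0.01 (-0.42 to 0.43), did not pass.

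The conjugation genes lay below the median of all genes as deposited and after scaling, and 0 of the 5 passed on any scale (limma, 2 at an unadjusted p under 0.05 as deposited). These 2 were lower, where 24.2% of all tested genes were lower at that threshold. Atg7, the activating enzyme of the system, went from 7.98 ± 1.57 to 4.7 ± 1.55 FPKM (log2 fold change -0.68 ± 0.25, adjusted p = 0.096, and -0.34 after scaling, interval -0.74 to 0.07). Atg3, which transfers ATG8 proteins to lipid, went from 6.52 ± 1.33 to 4.19 ± 0.92 FPKM (-0.53 ± 0.23, adjusted p = 0.15). Atg4b, the protease that prepares ATG8 proteins, had scattered vehicle values of 2.40 to 7.41 FPKM and a scaled log2 fold change of -0.28 (-0.82 to 0.26). Atg5 and Atg12, whose products are joined to each other, were at -0.07 and -0.03 after scaling. With the scaled fragment counts the median of the 5 was 0.02, against -0.19 with the scaled FPKM.

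The ATG8 family, the proteins attached to the autophagosome, did not pass on any of the 3 scales. Gabarapl1 made up 43.6 ± 2.61% of the family's summed FPKM with vehicle and 40.7 ± 2.86% with dexamethasone, and Gabarap 31.2 ± 6.89% and 29.7 ± 4.8%. Map1lc3b made up 11.5 ± 1.87% and 13 ± 2.59%, Gabarapl2 7.5 ± 2.82% and 7.88 ± 3.09%, and Map1lc3a 6.23 ± 1.85% and 8.7 ± 2.9%. All of these shares overlapped between groups. Map1lc3b was at 5.46, 5.70, 5.66 and 3.64 FPKM in vehicle 1 to 4 and at 3.88, 5.17, 4.08 and 4.09 FPKM in dexamethasone 1 to 4, with vehicle 4 lowest of all (log2 fold change -0.20 ± 0.21, adjusted p = 0.57, and 0.15 after scaling, interval -0.23 to 0.52). The table gives Map1lc3b a locus from 119910359 to 124345724 on chromosome 8, far wider than the gene (121590361 to 121598760 in GENCODE M21, GRCm38), and Gm20388 overlaps it on the same strand, so its reads may not all be its own. Map1lc3b was not alone in this. Lamp2 has a listed locus of 38179988 to 38613426 for a gene at 38401357 to 38456454. Hexa has 59518685 to 59656307 for 59539540 to 59565109, and Ctsd 142325836 to 142388038 for 142375911 to 142388038.

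The cargo receptors lay above the median of all genes as deposited and after scaling, and 0 of the 3 passed on any scale (limma). Sqstm1, which binds ubiquitinated cargo, was at 46.2, 35.0, 28.8 and 36.3 FPKM with vehicle and at 32.0, 35.0, 27.4 and 28.7 FPKM with dexamethasone. The groups overlapped, with a log2 fold change of -0.23 ± 0.20 as deposited (adjusted p = 0.49) and 0.17 after scaling (interval -0.22 to 0.56). On the scaled fragment counts it was 0.34 (interval 0.02 to 0.66, unadjusted p = 0.038, adjusted p = 0.18). Bnip3 and Bnip3l, receptors on mitochondria, were at 0.19 (-0.16 to 0.55) and 0.50 (-0.30 to 1.29) after scaling. Bnip3l reached 8.28 FPKM in dexamethasone 4 against 2.05 to 4.25 FPKM in the other libraries, but that library held 26 inferred fragments of it, the fewest of the 8, and its scaled fragment count of 35.8 lay within the range of the others (30.6 to 57.5).

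The rest of the pathway was read from 7 lists of 148 other genes, of which 140 were tested. In the deposited FPKM 2 rose and 8 fell, or 1.43% and 5.71% of them, beside the 1.37% and 7.85% of all genes. After median-ratio scaling 2 rose and 2 fell, or 1.43% each, beside 3.3% and 3.03% of all genes. With the scaled fragment counts 4 rose and 7 fell, or 2.86% and 5%, beside 5.26% and 5.26% of all genes. At an unadjusted p under 0.05 as deposited 2 were higher and 38 lower, where 3.18% of all genes were higher and 24.2% lower. Genes that passed on all 3 scales were Retreg1, Ddit4, Sort1 and Fnip2.

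Retreg1, listed in the table as Fam134b and known as a receptor for autophagy of the endoplasmic reticulum, was at 8.18, 4.08, 8.11 and 4.06 FPKM in vehicle 1 to 4 and at 25.8, 27.0, 25.1 and 15.4 FPKM in dexamethasone 1 to 4. The groups did not overlap. It rose 3.82 times, with a log2 fold change of 1.81 ± 0.27 (limma, adjusted p = 0.0016) and 2.18 ± 0.21 after scaling (adjusted p = 2.0e-04), and it passed with each library left out in turn. Of the 33 tested genes of its list, the autophagy genes outside the members, it was the only one to pass as deposited. Next by p came Nbr1, a cargo receptor (-0.61 ± 0.25, adjusted p = 0.14), Rb1cc1, the scaffold of the ULK complex (-0.51 ± 0.24, adjusted p = 0.19), and Atg9a, a membrane protein that supplies lipid (-0.49 ± 0.23, adjusted p = 0.19). Atg2b, a lipid transfer protein, rose on the scaled fragment counts only (0.51, adjusted p = 0.031).

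Sort1 encodes sortilin, a receptor that carries proteins, among them lysosomal hydrolases, from the Golgi. It was at 2.94, 3.55, 3.11 and 3.18 FPKM with vehicle and at 0.678, 0.744, 0.676 and 0.343 FPKM with dexamethasone. The groups stood far apart, and the dexamethasone mean was 19.1% of the vehicle mean. The log2 fold change of FPKM + 1 was -1.39 ± 0.19 (limma, adjusted p = 0.0010) and -1.16 ± 0.17 after scaling (adjusted p = 0.0020), and it passed with each library left out in turn. The other 12 sorting genes did not pass; the cation-dependent mannose 6-phosphate receptor M6pr was at -0.66 ± 0.22 (adjusted p = 0.073), and the retromer subunits Vps26a and Vps35 were at -0.53 and -0.56 (adjusted p = 0.12 and 0.16).

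In the list for nutrient sensing at the lysosome, centred on the kinase complex mTORC1, which inhibits ULK1, 1 of 21 tested genes rose and 3 fell as deposited. Of all tested genes 1.37% rose and 7.85% fell on that scale. Ddit4, an inhibitor of mTORC1 that is a known glucocorticoid target, was at 0.659 to 1.63 FPKM with vehicle and at 12.2 to 29.3 FPKM with dexamethasone, without overlap (log2 fold change 3.26 ± 0.27, limma, adjusted p = 1.5e-05, and 3.56 after scaling). Fnip2, a partner of folliculin, was at 7.14, 8.93, 7.89 and 4.76 FPKM with vehicle and at 1.76, 2.25, 1.31 and 3.14 FPKM with dexamethasone. The groups did not overlap, and the log2 fold change was -1.40 ± 0.25 (adjusted p = 0.0049) and -1.06 ± 0.25 after scaling (adjusted p = 0.031), where it passed in 2 of the 8 omissions of a library. Fnip1, its relative, fell as deposited only (-0.84 ± 0.23, adjusted p = 0.041). Deptor, an inhibitor of mTOR, fell as deposited (-1.01 ± 0.24, adjusted p = 0.020) and on the scaled fragment counts (-0.79, adjusted p = 0.0031).

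**Figure D5:**
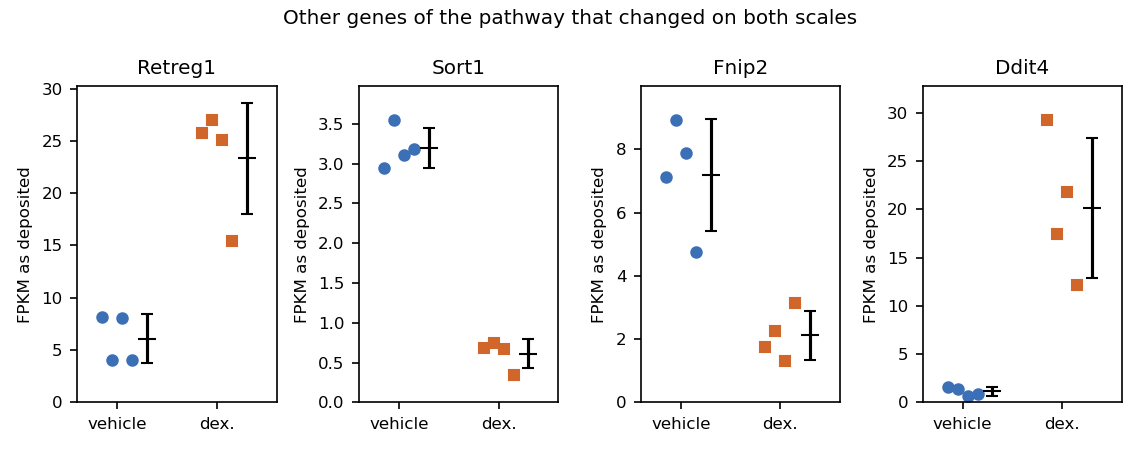
FPKM as deposited of Retreg1, Sort1, Fnip2 and Ddit4 in each library, with the mean and SD of 4 libraries beside the points. These 4 of the 140 other pathway genes passed on all 3 scales, and in each of them the dexamethasone and vehicle libraries do not overlap.

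The lists of other lysosomal enzymes and membrane genes held calls in the deposited FPKM that were not kept with FPKM after median-ratio scaling. As deposited, 7.85% of all tested genes fell. Of 30 other lysosomal enzymes 2 fell, Pla2g15, a lysosomal phospholipase (-0.88 ± 0.22, adjusted p = 0.027), and Scpep1, a carboxypeptidase (-1.03 ± 0.27, adjusted p = 0.034). Next by p were the arylsulfatase Arsa (-0.64, adjusted p = 0.070) and the fucosidase Fuca1 (-0.84, adjusted p = 0.081). Of 18 other membrane genes 2 fell, Scarb2, which carries glucocerebrosidase to lysosomes (-0.85 ± 0.21, adjusted p = 0.024), and the cholesterol exporter Npc1 (-0.91 ± 0.23, adjusted p = 0.028). Laptm4a and Lmbrd1, a lysosomal cobalamin exporter subunit, were both at -0.74 (adjusted p = 0.074). After scaling, Pla2g15, Scpep1, Scarb2 and Npc1 were at -0.63, -0.69, -0.45 and -0.52 (adjusted p 0.077 to 0.10). On the scaled fragment counts Pla2g15 (-0.93, adjusted p = 0.037), Scpep1 (-0.80, adjusted p = 0.022) and Npc1 (-0.51, adjusted p = 0.023) fell, Scarb2 did not pass (adjusted p = 0.057), and the beta-mannosidase Manba fell as well (-0.91, adjusted p = 0.0046). Leaving out 1 library at a time, the deposited calls held in 3 of 8 fits for Pla2g15 and Scpep1 and in 4 of 8 for Npc1 and Scarb2. At an unadjusted p under 0.05 as deposited, 14 of the 30 enzymes and 6 of the 18 membrane genes were lower. Of all tested genes 24.2% were lower at that threshold. After median-ratio scaling 2 enzymes and 3 membrane genes were, where 10.3% of all genes were.

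Of 16 subunits of the proton pump that acidifies the lysosome, 0 passed on any of the 3 scales (limma), and 4 had an unadjusted p under 0.05 as deposited. All 4 were lower, where 24.2% of all tested genes were lower at that threshold. The lowest p were those of Atp6v0a1 (-0.66, adjusted p = 0.090), Atp6v1a (-0.61, adjusted p = 0.097), Atp6ap1 (-0.61, adjusted p = 0.14) and Atp6v0d1 (-0.77, adjusted p = 0.14), and the median of the list was -0.32 as deposited and -0.02 after scaling. Of 9 tested regulators of autophagy transcription 0 passed as deposited or after scaling (3 and 1 at an unadjusted p under 0.05), the lowest p being those of Zkscan3 (-0.64, adjusted p = 0.073), Nr1h4 (-0.58, adjusted p = 0.12), Ppara (-0.44, adjusted p = 0.15) and Creb1 (-0.41, adjusted p = 0.21). At the unadjusted threshold the 3 were lower, beside 24.2% of all genes, and the 1 was higher, beside 9.92%. On the scaled fragment counts Foxo1 rose (0.62, adjusted p = 0.019).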

How the data were processed

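Liver RNA of 4 vehicle and 4 dexamethasone libraries was analysed from a table of protein-coding genes. Ribosomal RNA was removed before stranded libraries were prepared, per the labels. The submitters' processing notes name CASAVA 1.8, TopHat2 and the human build hg19, although identifiers are those of mouse. The counting tool is not given in the sources used here. Per the file headers, 8 columns hold FPKM made by the authors; their denominator is not given. A further 8 deposited columns, called counts in the header, were read as a signal: 93.3% to 95.5% of their values were whole multiples (tolerance 0.01) of a step that differed between libraries, so they are scaled fragment counts and not raw counts. The quotient of value and step is called inferred fragments, which cover coding genes only.

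Tests used R 4.3.3 and limma 3.58.1 (lmFit, eBayes with trend) on log2(FPKM + 1) for the 10221 genes that reached 0.5 FPKM in 4 libraries or more, two-sided, with Benjamini-Hochberg adjustment over all genes tested and a threshold of 0.05. A pseudocount of 1 understates changes of low genes. Standard errors and 95% intervals are from the same fit. Error after ± is SD over 4 libraries for levels and SE for fold changes. The steps were tested on simulated data. Intervals cover the spread between libraries.

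Every member is named, and of each pathway list the up to 4 genes of lowest p. Values in every library are given for members past the threshold as deposited or after median-ratio scaling and for Tfeb, Tfe3, Sqstm1, Map1lc3b and Ctsl; those of Ulk1, Wipi1, Glb1, Gla, Lamp1 and of pathway genes, and Atg2b and Foxo1, were added after values were seen. The members and lists were chosen with earlier results of these data known, so their counts are set beside those of all genes. Replicate numbers were not taken as pairs in the main fit. After median-ratio scaling and removal of group means, same-numbered libraries correlated at -0.02 to 0.02. That scaling removes shifts of whole libraries, and the correlation was not computed on the deposited FPKM. There the median log2 ratio to the geometric means was 0.30, 0.35, 0.26 and 0.00 in vehicle 1 to 4. In dexamethasone 1 to 4 it was -0.07, 0.06, -0.17 and -0.56, so replicate 2 was highest and replicate 4 lowest in each group. The alternatives tried were median-ratio scaling, quantile normalization, the scaled fragment counts, no trend, a filter at 1 FPKM or none, a replicate block, pseudocounts of 0.5 and 0.1, and each library left out. Omissions with the scaled fragment counts were added after seeing the data.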

Additional observations from a re-analysis of the deposited data

Results flagged for a closer look

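In 78 groups of 4 libraries (39 genes, 2 treatments) the gap from the highest or lowest library to its nearest neighbour, divided by the range of the group, exceeded Dixon's 95% critical value in 7 deposited FPKM groups. Chance gives about 1 in 20 groups, and none of the 7 belongs to Ctsc, Ulk1 or Ulk2. Dexamethasone 4, the library with the fewest fragments, was low for Lamp1 (27.2 FPKM against 50.5 to 55.1, gap over range 0.835) and for Tpp1 (6.00 FPKM against 10.0 to 10.9, 0.831). Vehicle 1 was high for Ctsh (85.4 FPKM against 73.3 to 75.2, 0.843). Dexamethasone 2 was high for Gusb (6.94 FPKM against 2.85 to 3.32, 0.885) and for Map1lc3b (5.17 FPKM against 3.88 to 4.09, 0.839). Vehicle 4 was low for Map1lc3b (3.64 FPKM against 5.46 to 5.70, 0.885), and dexamethasone 3 was low for Map1lc3a (1.87 FPKM against 3.06 to 3.20, 0.896).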

How the results depend on the processing

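As deposited, 0 members were higher and 2 lower, 2 and 8 other pathway genes, and 140 and 802 of all genes. Members lower numbered 1 after median-ratio scaling and 1 after quantile normalization. Other pathway genes lower numbered 4 with no filter, 2 after median-ratio scaling and 3 after quantile normalization, and those higher numbered 4 with the scaled fragment counts. Of all genes, 487 were lower with no filter, 337 higher and 310 lower after median-ratio scaling, 335 higher and 335 lower after quantile normalization, and 538 higher with the scaled fragment counts. With a replicate block 4 members were lower (Ctsa and Ulk1 added) and 159 of all genes higher. With the replicate block and median-ratio scaling 0 members, 1 other pathway gene and 190 of all genes were lower and 243 higher (limma; 2 members were lower at an unadjusted p under 0.05). The cause of these changes was not tested.

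With each library left out, members lower numbered 0 to 2 as deposited (0 without vehicle 1 or dexamethasone 3, 1 without vehicle 2 or 3 or dexamethasone 4), 0 to 1 after scaling and 1 to 3 with scaled fragment counts, and members higher 0, 0 and 0 to 1 (Wipi1 without dexamethasone 2). Other pathway genes lower numbered 2 to 10, 1 to 2 and 4 to 8, and higher 2, 2 to 3 and 2 to 4. All genes lower numbered 367 to 866, 182 to 282 and 392 to 517, and higher 107 to 170, 223 to 314 and 431 to 509. The hydrolase median minus the autophagy median ran from -0.15 to -0.025, -0.11 to 0.0013 and -0.24 to 0.028, and the member median minus that of all genes from -0.17 to -0.057, -0.10 to -0.0054 and -0.080 to 0.025. Over 34 alternatives Ctsc passed in 25, Ulk2 in 10 and Ulk1 in 6, and no called member changed direction. The edgeR test on recovered fragments was not run, since the columns were not nearly all whole multiples. Depth limits the low members: Gla stood on 5 to 18 fragments.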
